A study of Malus domestica with 4 samples.

Results

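The genes described here are those of apple cortex whose RNA was higher after storage at 0.4 kPa oxygen than before storage while staying near the level before storage at 0.8 kPa. A gene was a member when its 0.4ox level was at least 10 CPM, that is 10 estimated counts in each 1000000 of a condition's total, its log2 ratio 0.4ox/T0 was at least 1, and its log2 ratio 0.8ox/T0 lay from -0.5 to 0.4, with 0.5 CPM added to each level before the ratio was taken. The rule held for 171 of the 63514 genes in the tables. Of the 13536 genes that reached 10 CPM in 0.4ox, 1564 had a log2 ratio 0.4ox/T0 of at least 1, and the members were 1.26% of the 13536.

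The material was cortex of the cultivar Granny Smith, cut as slices from the equator of the fruit, and all conditions share this cultivar and tissue. T0 is labelled as normoxic and was taken before the low-oxygen storage, after the fruit had been acclimated in the cold. 0.4ox was sampled after 24 days at 0.4 kPa oxygen and 0.8ox after 24 days at 0.8 kPa, both in the cold, which the study counts as days in atmosphere (DIA). The shifted sample comes from fruit moved from 0.4 to 0.8 kPa, and its day is not given in the labels. The study's methods place this move after the sampling at 24 days, so the shifted fruit had been stored longer than those of 0.8ox. The series states 3 replicates per condition, but the tables hold 1 estimated count per gene and condition, merged from the libraries, so the errors below are the standard errors (SE) that follow from the variance deposited beside each count. They measure the spread between these libraries only as far as that variance does. The sum of the estimated counts was highest in T0 with 9553180, followed by 0.8ox with 6471124 and 0.4ox with 5445598. In the separate table with the shifted sample it came to 5363827 in 0.8ox and 4865029 in the shifted sample. These sums are not numbers of reads. The study lists far more mapped reads for T0, 0.4ox and 0.8ox, and most T0 reads came from 1 library.

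Plant cells that run short of oxygen slow respiration, ferment sugars to ethanol or lactate and induce a core set of hypoxia genes through ethylene response factors of group VII, whose stability depends on oxygen. Oxygen is also a substrate outside respiration, among others for oxygenases that use 2-oxoglutarate, for cytochrome P450 enzymes and for squalene epoxidation on the way to sterols. Bulky apple fruit are commonly stored in the cold near the lowest oxygen they tolerate, where small steps in oxygen separate mostly aerobic from mostly fermentative metabolism.

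The members are defined by T0, 0.4ox and 0.8ox, so their values in these conditions are a description and were not tested. Their log2 ratio 0.4ox/T0 ran from 1.00 to 3.79 with a median of 1.29, which is a 2.45-fold higher level, and their log2 ratio 0.8ox/T0 ran from -0.49 to 0.40 with a median of 0.17. In 0.8ox 125 members lay above T0 and 46 below it. The median level was 8.41 CPM in T0, 23.3 CPM in 0.4ox and 9.78 CPM in 0.8ox. Most members stood just past the bound, with 119 of 171 under a log2 ratio 0.4ox/T0 of 1.5, 34 from 1.5 to 2, and 18 at 2 or more. In bulk tissue, more cells of a type and more RNA per cell cannot be told apart in such ratios.

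**Figure D1:**
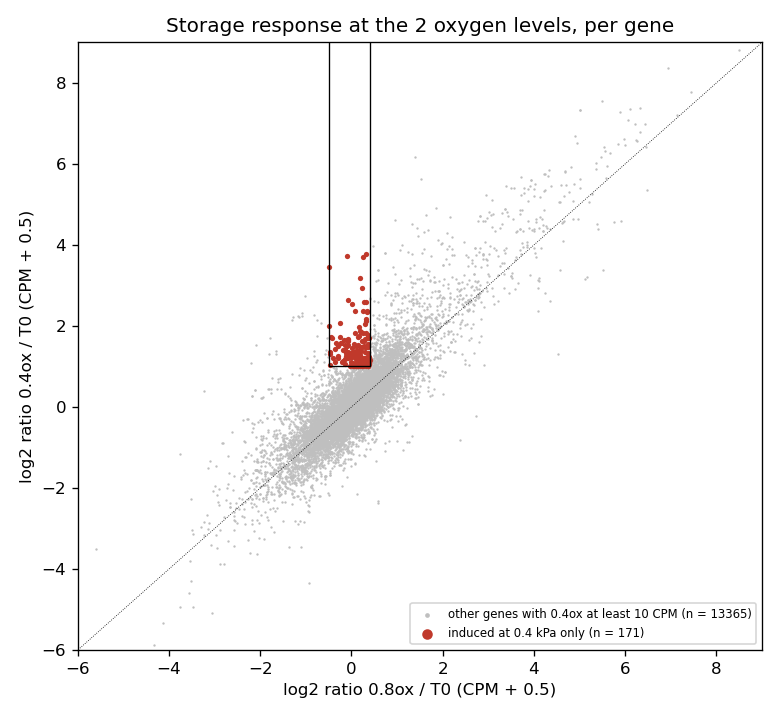
Each point is 1 gene with at least 10 CPM in 0.4ox, placed by its log2 ratio 0.8ox/T0 (x axis) and 0.4ox/T0 (y axis), with the 171 members in red inside the bounds of the rule and the other genes in grey. The dotted line marks equal ratios. The members fill the lower part of a column above the main cloud, with most of them under 1.5 on the y axis and 5 above 3.

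The bounds cut through a continuous cloud of genes. The median SE of the members was 0.25 for both log2 ratios against T0, and 134 of the 171 lay within 1 SE of a log2 bound, 81 of them within 1 SE of the lower bound on 0.4ox/T0 and 94 within 1 SE of the upper bound on 0.8ox/T0. Just inside the 0.4ox/T0 bound were MDP0000174161 and MDP0000189569, both at 1.00, and just outside it were MDP0000903665 and MDP0000622488, both at 0.99. At the upper bound of 0.8ox/T0 the nearest members were MDP0000390627 at 0.40 and MDP0000831483 at 0.39, while MDP0000668448 and MDP0000209089, also at 0.40 when rounded, lay just outside with 0.4ox/T0 ratios of 2.68 and 1.93. At the lower bound MDP0000125709 and MDP0000436890, both at -0.49, were inside, and MDP0000308771 at -0.51 and MDP0000522954 at -0.54 were outside. The level bound of 10 CPM separated MDP0000169719 and MDP0000125709, both less than 0.01 CPM above it, from MDP0000869137 at 9.93 CPM and MDP0000191492 at 9.85 CPM.

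Some members had nearly the same counts as others. The table with the shifted sample came from another run, whose 0.8ox counts differ from those of the first tables. The percentage of a gene's 0.8ox count that this second table kept is given below as a mark of how far the 2 runs differ for that gene. It is a ratio of unscaled counts, so it can pass 100% and is not a share of reads. Levels of 0.8ox in CPM differ between the runs as well. MDP0000787168, with a percentage of 116%, had 128 CPM in 0.8ox of the first tables and 179 CPM in the second. The study's methods state that reads mapping to several places were removed, and the cause of a low percentage was not tested. It was 119% at most among genes with 100 counts or more in 0.8ox of the first tables, and its median was 102% over the genes with 10 CPM in 0.4ox and 90.0% over the members. Of the 171 members, 110 kept at least 50% of the count, and 27 kept under 10%. In all, 31 members had another member whose counts in T0, 0.4ox and 0.8ox were each within 5% of their own, and 11 of these 31 kept under 10%. Joined by this tolerance, the 171 members make 154 sets.

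Of the 10 members with the highest ratios 0.4ox/T0, 9 have no name in the sources read here, as do 147 of all 171 members. MDP0000418277 had 0.345 ± 0.190 CPM in T0, 11.2 ± 2.12 CPM in 0.4ox and 0.554 ± 0.293 CPM in 0.8ox (± SE), a log2 ratio 0.4ox/T0 of 3.79. MDP0000137468 had 1.54 ± 0.402 CPM in T0, 26.6 ± 3.90 CPM in 0.4ox and 1.40 ± 0.465 CPM in 0.8ox, a log2 ratio of 3.73. MDP0000838523 had 3.09 ± 0.589 CPM in T0, 45.9 ± 6.73 CPM in 0.4ox and 3.81 ± 0.767 CPM in 0.8ox, a log2 ratio of 3.69. In these genes T0 and 0.8ox lay close to each other and 0.4ox stood far above both. For MDP0000418277, with few counts in T0 and 0.8ox, the place within the 0.8ox/T0 bounds rests on the added 0.5 CPM. MDP0000195614 had 1.99 CPM in T0, 22.3 CPM in 0.4ox and 2.35 CPM in 0.8ox, and MDP0000300351 had 0.985 CPM in T0, 11.0 CPM in 0.4ox and 1.23 CPM in 0.8ox, with log2 ratios 0.4ox/T0 of 3.19 and 2.95. The other genes among the 10 without annotation, MDP0000119148, MDP0000162579, MDP0000760156 and MDP0000276278, had log2 ratios 0.4ox/T0 from 2.55 to 2.63, with 0.4ox levels of 15.5, 51.8, 43.4 and 32.4 CPM. MDP0000760156 kept 5.01% of its count in the second table.

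The single annotated gene among the 10 highest was MDP0000436890, a 2-oxoglutarate and Fe(II)-dependent oxygenase, of a family that uses molecular oxygen to hydroxylate or desaturate its substrates. It had 0.478 ± 0.224 CPM in T0, 10.2 ± 1.73 CPM in 0.4ox and 0.198 ± 0.175 CPM in 0.8ox, and a log2 ratio 0.4ox/T0 of 3.46. It was barely detected in T0 and 0.8ox, with 4.57 estimated counts in T0 and 1.28 in 0.8ox. Its place within the 0.8ox/T0 bounds rests on the added 0.5 CPM.

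The 5 members with the most RNA in 0.4ox were of another kind, with modest ratios on a high level. MDP0000246775 had 1553 ± 179.8 CPM in T0, 3859.9 ± 1157 CPM in 0.4ox and 1706 ± 201 CPM in 0.8ox. MDP0000552328 had 1064 CPM in T0, 2625 ± 657 CPM in 0.4ox and 1153 CPM in 0.8ox. MDP0000218699 had 1042 CPM in T0, 2599 ± 653 CPM in 0.4ox and 1124 CPM in 0.8ox, and is a near copy of MDP0000552328 by the tolerance above. The log2 ratios 0.4ox/T0 were 1.31 ± 0.46, 1.30 ± 0.39 and 1.32 ± 0.39, so each lay within 1 SE of the bound of 1. MDP0000549646 and MDP0000206098, also near copies of each other, had 852 and 851 CPM in 0.4ox, with log2 ratios 0.4ox/T0 of 1.03 for both. MDP0000218699 and MDP0000552328 kept 7.89% and 12.6% of their counts in the second table, and MDP0000549646 and MDP0000206098 kept 0.0689% and 0.0328%, so the 2 runs give very different levels for these 4. MDP0000246775 kept 61.2%.

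In the sources read here the study names 24 of the 171 members by function, and since its choice drew on the same samples, these names are not independent evidence of any direction. Enzymes of isoprenoid synthesis form one group. Hydroxymethylglutaryl-CoA synthase (MDP0000661951), which makes the precursor of mevalonate, had 161 ± 13.2 CPM in T0, 411 ± 50.9 CPM in 0.4ox and 152 ± 12.4 CPM in 0.8ox. Hydroxymethylglutaryl-CoA reductase 1 (MDP0000312032), which forms mevalonate in the step that controls the pathway, had 89.3 ± 7.11 CPM in T0, 316 ± 35.8 CPM in 0.4ox and 106 ± 8.75 CPM in 0.8ox. A member of the GHMP kinase family (MDP0000232665), the family to which mevalonate kinase belongs, had 23.1 ± 2.33 CPM in T0, 91.3 ± 10.3 CPM in 0.4ox and 25.8 ± 2.59 CPM in 0.8ox. The terpenoid cyclase (MDP0000474746), of a family that closes the rings of triterpenes and sterols or of smaller terpenes, had 82.6 ± 7.13 CPM in T0, 248 ± 29.5 CPM in 0.4ox and 70.9 ± 6.15 CPM in 0.8ox. Their log2 ratios 0.4ox/T0 were 1.35, 1.82, 1.96 and 1.58, and their log2 ratios 0.8ox/T0 ran from -0.22 to 0.24.

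In phenylpropanoid synthesis, phenylalanine ammonia-lyase 1 (MDP0000787168), the entry enzyme, had 137 ± 10.5 CPM in T0, 434 ± 50.5 CPM in 0.4ox and 128 ± 10.6 CPM in 0.8ox. Cinnamoyl-CoA reductase (MDP0000322755), which leads towards lignin, had 56.8 CPM in T0, 122 CPM in 0.4ox and 57.0 CPM in 0.8ox, and P450 reductase 2 (MDP0000167955), which passes electrons to cytochrome P450 enzymes such as those of this pathway, had 107 CPM in T0, 272 CPM in 0.4ox and 98.9 CPM in 0.8ox. The log2 ratios 0.4ox/T0 were 1.66, 1.09 and 1.34, so cinnamoyl-CoA reductase stood closest to the bound of 1.

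Among 4 genes of the cell wall, glycosyl hydrolase 9B1 (MDP0000199273), of a family of endoglucanases, had 2.41 ± 0.515 CPM in T0, 12.1 ± 1.94 CPM in 0.4ox and 3.15 ± 0.697 CPM in 0.8ox, a log2 ratio 0.4ox/T0 of 2.12. The uridylyltransferase MDP0000841490, which makes the UDP-N-acetylglucosamine used for glycans, had 7.38 CPM in T0, 20.6 CPM in 0.4ox and 5.64 CPM in 0.8ox. Both COBRA-like protein 1 genes, whose relatives in Arabidopsis take part in cellulose deposition, had 13.8 and 14.6 CPM in 0.4ox (MDP0000131777 and MDP0000120592), but kept only 9.05% and 13.7% of their counts in the second table. In amino acid and sugar metabolism, asparagine synthetase 3 (MDP0000292272), which transfers an amide group to aspartate, had 35.6 ± 3.09 CPM in T0, 114 ± 12.3 CPM in 0.4ox and 31.8 ± 3.05 CPM in 0.8ox. VALINE-TOLERANT 1 (MDP0000647255), in Arabidopsis a regulatory subunit of the first enzyme of branched-chain amino acid synthesis, had 60.8 CPM in T0, 176 CPM in 0.4ox and 67.0 CPM in 0.8ox, and a pfkB-like carbohydrate kinase (MDP0000121909) had 6.63 CPM in T0, 16.2 CPM in 0.4ox and 6.65 CPM in 0.8ox.

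The 9 regulators came from the list of 63 transcription factors that the study drew from these samples, of which 45 were higher in 0.4ox than in 0.8ox in the values used here. Auxin response factor 19 (MDP0000268306), which in Arabidopsis activates auxin-induced genes, had 30.0 ± 2.69 CPM in T0, 66.7 ± 7.33 CPM in 0.4ox and 26.3 ± 2.63 CPM in 0.8ox. The BEL1-like homeodomain proteins 2 (MDP0000141097) and 4 (MDP0000249034) had 61.9 and 53.3 CPM in 0.4ox against 23.8 and 22.4 CPM in T0. A calmodulin-binding transcription activator (MDP0000155345), of a family that links calcium signals to transcription, had 13.4 CPM in T0, 39.2 CPM in 0.4ox and 14.4 CPM in 0.8ox. The CCCH zinc finger proteins with an RNA recognition motif, MDP0000243086 and MDP0000220601, had log2 ratios 0.4ox/T0 of 1.83 and 1.48 and had the 0.8ox/T0 ratios 0.31 and 0.36. A TCP family factor (MDP0000319266) stood at 6.31 CPM in T0, 14.1 CPM in 0.4ox and 5.41 CPM in 0.8ox. The 2 members from the WRKY family, MDP0000134105 and MDP0000127976, had 16.7 and 17.5 CPM in 0.4ox and kept 10.6% and 7.74% of their counts in the second table. A further list of 17 genes, those assayed by RT-qPCR, held 0 members, and its median log2 ratios against T0 were 2.43 in 0.4ox and 2.29 in 0.8ox. The list mixes enzymes and group VII factors, and its medians do not describe each gene. By RT-qPCR the study found the alanine aminotransferase of this list induced only at the lower oxygen level. Its value in the counts used here is not given, and the difference from its absence among the members was not examined.

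**Figure D2:**
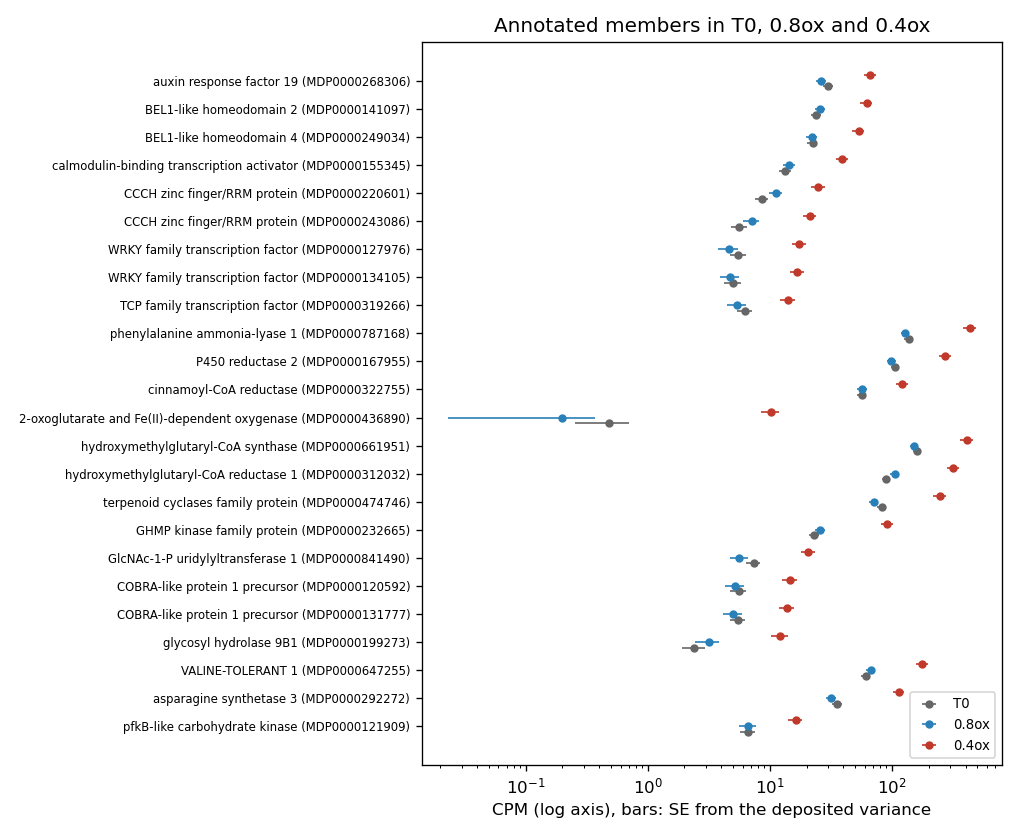
Level in CPM (log axis) of the 24 annotated members, in T0 (grey), 0.8ox (blue) and 0.4ox (red), with bars for the SE from the deposited variance. In every row the red point lies to the right, as the rule requires. The grey and blue points lie near each other except for the oxygenase, with 0.478 CPM in T0 and 0.198 CPM in 0.8ox. The levels are drawn without the 0.5 CPM that the rule adds. In 0.4ox they run from 10.2 CPM for the oxygenase to 434 CPM for phenylalanine ammonia-lyase 1.

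The shifted sample was not used to choose the members. Its comparison with 0.8ox shows where their RNA stood in fruit that had been at 0.4 kPa and were then at 0.8 kPa, against fruit kept at 0.8 kPa. Since the shifted fruit had also been stored longer, oxygen history and storage time cannot be told apart in these ratios. The log2 ratio shifted/0.8ox was positive in 130 of the 138 members that could be tested, and 37 members passed the threshold as higher and 0 as lower. Over all genes tested in this table, 319 of 20669, or 1.54%, passed as higher and 86, or 0.416%, as lower. The 37 were 26.8% of the members tested and 21.6% of the 171, and they were 11.6% of the 319 genes called higher. The test set the log2 ratio against its SE as a two-sided normal deviate, with Benjamini-Hochberg adjustment over all 20669 genes and a threshold of 0.001, for genes above 0 in both conditions that reached 10 counts in one or the other. Among the members, 11 were tested only through their count in the shifted sample, and 3 of these passed. Of the 128 with at least 10 counts in 0.8ox, 34 passed and 1 could not be tested, as it had 0 counts in the shifted sample. At an unadjusted p under 0.05, 4 members were lower, and the exact test of edgeR also called 0 members lower. The 0.8ox libraries enter both the rule and this comparison, and how far that moves the ratios was not tested.

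Of the 33 members not tested, 32 had under 10 counts in both conditions of this table. The other, MDP0000364961, had 25.6 estimated counts in 0.8ox, or 4.78 ± 1.86 CPM, and 0 in the shifted sample. Against a floor of 3 counts in the shifted sample this is 7.75-fold lower, a value that leaves out the error of 0.8ox. The count of 0 lower calls does not cover this gene. Over all 171 members, with 0.5 CPM added to each level, the median log2 ratio shifted/0.8ox was 0.71 (quartiles 0.34 and 1.24) and 153 members, or 89.5%, lay above 0.8ox. Over the 13536 genes with 10 CPM in 0.4ox the median was 0.07 and 58.9% lay above 0.8ox. All genes tested had a median of 0.15 without added CPM. When the scale was set by the median ratio of genes with 50 counts in both conditions, the members' median was 0.63 and 34 members passed as higher.

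Other groups cut from the same ratios stood as follows after the shift. The 869 genes with 10 CPM in 0.4ox and log2 ratios of at least 1 at both oxygen levels had a median log2 ratio shifted/0.8ox of 0.12, and 57 of 708 tested passed as higher and 10 as lower. The 497 genes with the same 0.4ox/T0 bound and a log2 ratio 0.8ox/T0 above 0.4 and under 1 had a median of 0.28, with 30 of 418 higher and 1 lower. The 5269 genes near T0 at both levels had a median of 0.06, with 14 of 4595 higher and 3 lower. The mirror group of 64 genes induced at 0.8 kPa only had a median of -0.54, with 0 of 51 higher and 5 lower. The shares called higher were thus 26.8% in the members against 8.05%, 7.18%, 0.305% and 0% in these groups, and the differences between groups were not tested.

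**Figure D3:**
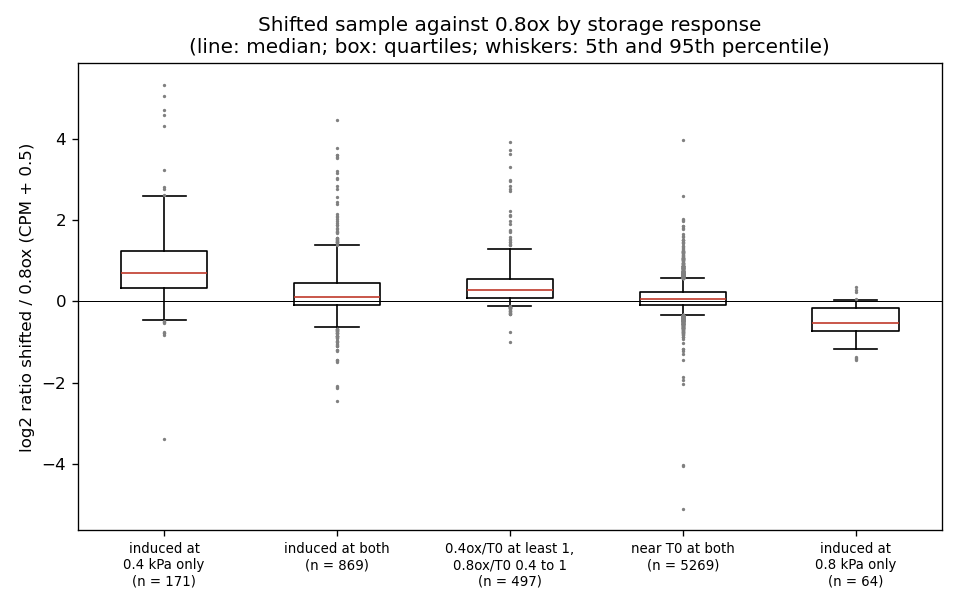
Log2 ratio shifted/0.8ox (y axis, 0.5 CPM added) for the members and for 4 other groups of genes cut from the ratios 0.4ox/T0 and 0.8ox/T0, with the median as a red line, the quartiles as a box and the outer percentiles given in the title as whiskers. The members' median of 0.71 lies above the medians of 0.12, 0.28 and 0.06 of the next 3 groups, and the genes induced at 0.8 kPa only have a median of -0.54, with 6 of 64 above 0. All groups share the 0.8ox libraries with their own definition.

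The counts are given next by the size of the ratio at 0.4 kPa, and differences between these bins were not tested. With a log2 ratio 0.4ox/T0 of at least 2, 12 of 16 tested members were higher in the shifted sample, 3 of the 12 only through their count there, with a median log2 ratio shifted/0.8ox of 2.28 over all 18. From 1.5 to 2 these values were 14 of 30 and 1.15 over 34 members, and under 1.5 they were 11 of 92 and 0.54 over 119 members. Of the 37 members called, 4 were at least 16-fold higher in the shifted sample than in 0.8ox, 16 at least 4-fold, and 21 less than 4-fold. No 2 of the 37 were near copies of each other by the tolerance above. Of the 110 members that kept at least 50% of their count, 109 were tested and 34 passed, which makes 34 of the 37 calls.

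Values per gene follow for the 10 members with the highest 0.4ox/T0 ratio, of which 7 passed as higher in the shifted sample than in 0.8ox. Of these 7, MDP0000418277, MDP0000195614 and MDP0000300351 had 4.28, 9.17 and 9.50 estimated counts in 0.8ox and were tested only through their count in the shifted sample, where they were high. MDP0000137468 had 1.99 ± 0.618 CPM in 0.8ox and 101 ± 12.4 CPM in the shifted sample (± SE), a log2 ratio shifted/0.8ox of 5.67 ± 0.48, the highest value called. MDP0000838523 had 1.97 ± 0.618 CPM in 0.8ox and 82.0 ± 11.0 CPM in the shifted sample, a log2 ratio of 5.38 ± 0.49, on 42.9% of its 0.8ox count of the first tables. MDP0000418277 had 0.797 ± 0.457 CPM in 0.8ox and 31.0 ± 4.86 CPM in the shifted sample, a log2 ratio of 5.28 ± 0.86. These were the 3 highest ratios called among the members. The log2 ratio was 4.68 ± 0.54 in MDP0000195614, 3.07 ± 0.53 in MDP0000300351, 2.68 ± 0.26 in MDP0000162579 and 2.04 ± 0.30 in MDP0000276278. The other genes of the 10 did not pass. MDP0000119148 had 0.956 CPM in 0.8ox and 5.10 CPM in the shifted sample, and MDP0000760156 had 2.69 and 16 estimated counts in 0.8ox and the shifted sample.

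The 2-oxoglutarate and Fe(II)-dependent oxygenase MDP0000436890 had 1.52 estimated counts in 0.8ox and 97.5 in the shifted sample, which is 0.284 CPM in 0.8ox and 20.05 CPM in the shifted sample. The ratio in CPM was 70.6, with a 95% exact binomial interval on the rounded counts of 14.6 to 452 that covers counting error only. The gene was tested only through its count in the shifted sample, where it was high. With an SE of 1.57 on the log2 scale it did not pass the threshold. It passed with the exact test of edgeR, which used a single dispersion per gene, averaged over both conditions by count. That dispersion rests here almost wholly on the shifted sample, so the large error of 0.8ox hardly enters it.

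All 4 annotated enzymes of isoprenoid synthesis were tested and passed as higher in the shifted sample than in 0.8ox. The terpenoid cyclase had 74.8 ± 8.40 CPM in 0.8ox and 528 ± 62.5 CPM in the shifted sample, a log2 ratio of 2.82 ± 0.24. The GHMP kinase had 35.2 ± 4.17 CPM in 0.8ox and 149.8 ± 16.8 CPM in the shifted sample, a log2 ratio of 2.09 ± 0.24. Hydroxymethylglutaryl-CoA reductase 1 had 50.2 ± 5.71 CPM in 0.8ox and 208 ± 22.4 CPM in the shifted sample, a log2 ratio of 2.05 ± 0.23, on the 39.3% of its 0.8ox count kept in this table. Hydroxymethylglutaryl-CoA synthase had 209 ± 22.2 CPM in 0.8ox and 677 ± 81.1 CPM in the shifted sample, a log2 ratio of 1.69 ± 0.23. That the ranges given by the SE did not overlap in these 4 genes rests on the same errors as the calls and adds no evidence.

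Of the 3 phenylpropanoid genes 1 passed as higher. Phenylalanine ammonia-lyase 1 had 179 ± 19.2 CPM in 0.8ox and 457 ± 49.3 CPM in the shifted sample, a log2 ratio of 1.35 ± 0.22. P450 reductase 2 had 128 CPM in 0.8ox and 238 CPM in the shifted sample, a log2 ratio of 0.89 ± 0.22, and cinnamoyl-CoA reductase had 76.5 CPM in 0.8ox and 97.0 CPM in the shifted sample, a log2 ratio of 0.34 ± 0.22, and neither passed. Among the cell wall genes, glycosyl hydrolase 9B1 passed as higher than in 0.8ox, with 4.33 ± 0.921 CPM in 0.8ox and 28.7 ± 4.00 CPM in the shifted sample and a log2 ratio of 2.73 ± 0.37. The uridylyltransferase had a log2 ratio of 1.02 ± 0.33 and did not pass, and both COBRA-like genes had too few counts to test. Asparagine synthetase 3 also passed, with 43.8 ± 5.06 CPM in 0.8ox and 104 ± 11.2 CPM in the shifted sample and a log2 ratio of 1.24 ± 0.23. VALINE-TOLERANT 1 and the pfkB-like kinase had log2 ratios of 0.70 ± 0.22 and 0.95 ± 0.34 and did not pass.

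Of the 9 regulators 7 could be tested and 2 passed as higher. The CCCH zinc finger protein MDP0000220601 had 8.18 ± 1.31 CPM in 0.8ox and 23.6 ± 3.05 CPM in the shifted sample, a log2 ratio of 1.53 ± 0.30, and auxin response factor 19 had 33.1 ± 3.97 CPM in 0.8ox and 72.4 ± 8.01 CPM in the shifted sample, a log2 ratio of 1.13 ± 0.24. The other CCCH protein, MDP0000243086, had a log2 ratio of 0.94 ± 0.29, the TCP factor 0.98 ± 0.31, the calmodulin-binding activator 0.68 ± 0.26, and BEL1-like homeodomain 4 and 2 0.66 ± 0.24 and 0.65 ± 0.24, none of which passed. Both WRKY family genes had too few counts to test. Among the 36 transcription factors of the study that were higher in 0.4ox than in 0.8ox but are not members, 7 of 31 tested passed as higher, against 2 of 7 here, and of the 17 genes measured by RT-qPCR 13 were tested and 0 passed in either direction.

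The 28 other members called higher carry no annotation here and come from 118 unannotated members tested, against 9 of 20 annotated ones. They include MDP0000831518, with 2.53 CPM in 0.8ox and 28.0 CPM in the shifted sample and a log2 ratio of 3.47 ± 0.45, and MDP0000287302, with 15.7 CPM in 0.8ox and 87.0 CPM in the shifted sample and a log2 ratio of 2.47 ± 0.28. These 2 were chosen after their values were seen. The 3 lowest ratios called were those of MDP0000313382 (1.01 ± 0.23), auxin response factor 19 and MDP0000232692 (1.23 ± 0.29). Of the 5 members with the most RNA in 0.4ox, MDP0000549646 and MDP0000206098 had 2.40 and 1.14 estimated counts in 0.8ox and 0.780 and 0 in the shifted sample, too few for a direction. MDP0000246775, which kept 61.2% of its count, had 1261 ± 153 CPM in 0.8ox and 883 ± 103 CPM in the shifted sample, a log2 ratio of -0.51 ± 0.24 that did not pass. The near copies MDP0000218699 and MDP0000552328 had log2 ratios of -0.82 ± 0.23 and -0.78 ± 0.22 and did not pass either.

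**Figure D4:**
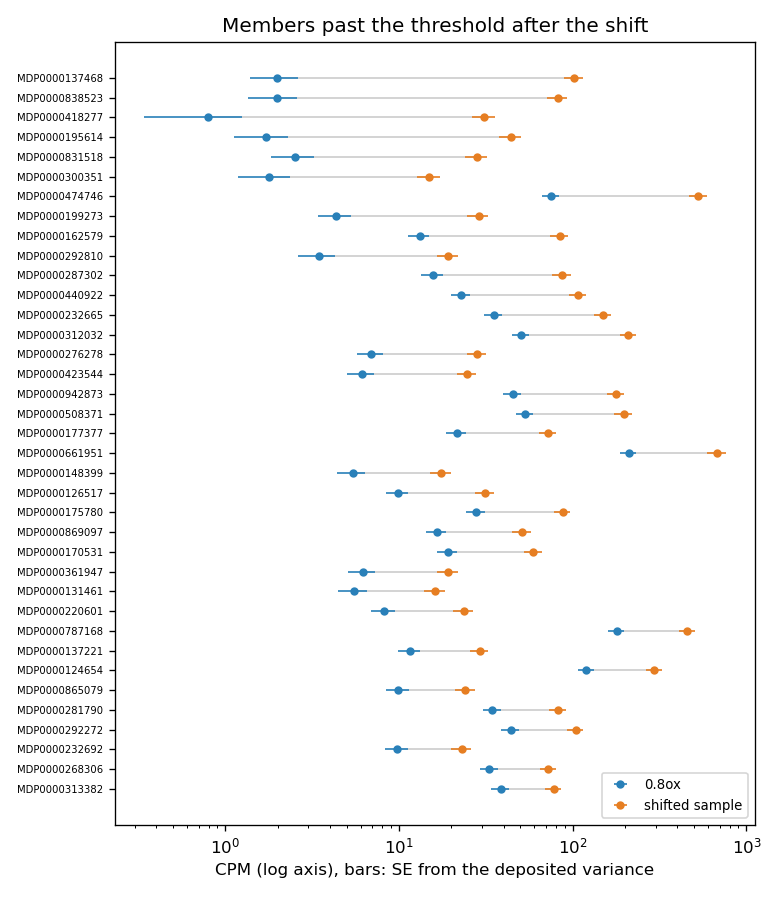
The 37 members past the threshold, ordered by their log2 ratio shifted/0.8ox, with the level in CPM (log axis) in 0.8ox (blue) and in the shifted sample (orange) and bars for the SE from the deposited variance (drawn short at the left where the SE nears the level). The orange point lies to the right in each row, from 1.99 against 101 CPM in the top row to 38.6 against 77.5 CPM in the bottom row.

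The level in the shifted sample was set beside that in 0.4ox through 0.8ox, which is in both runs. The runs were counted and scaled separately, so this is a description, limited to the 110 members that kept at least 50% of their count. Their median log2 ratio was 1.28 for 0.4ox/0.8ox and 0.83 for shifted/0.8ox. By the difference of both ratios, 28 of the 110 stood above their 0.4ox level in the shifted sample and 82 below it, with a median of -0.37. Of the 34 called members among them, 23 stood above, and both that count and the calls rest on the same shifted counts. This difference was 1.52 for MDP0000137468, 1.02 for the terpenoid cyclase, 0.81 for glycosyl hydrolase 9B1 and 0.26 for hydroxymethylglutaryl-CoA synthase, and it was -0.41 for phenylalanine ammonia-lyase 1, -0.59 for asparagine synthetase 3 and -0.69 for VALINE-TOLERANT 1. Across these 110 genes the ratios 0.4ox/0.8ox and shifted/0.8ox had a Pearson r of 0.74 and a Spearman rho of 0.65, but both ratios have the same 0.8ox libraries as denominator, and genes are not independent replicates.

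**Figure D5:**
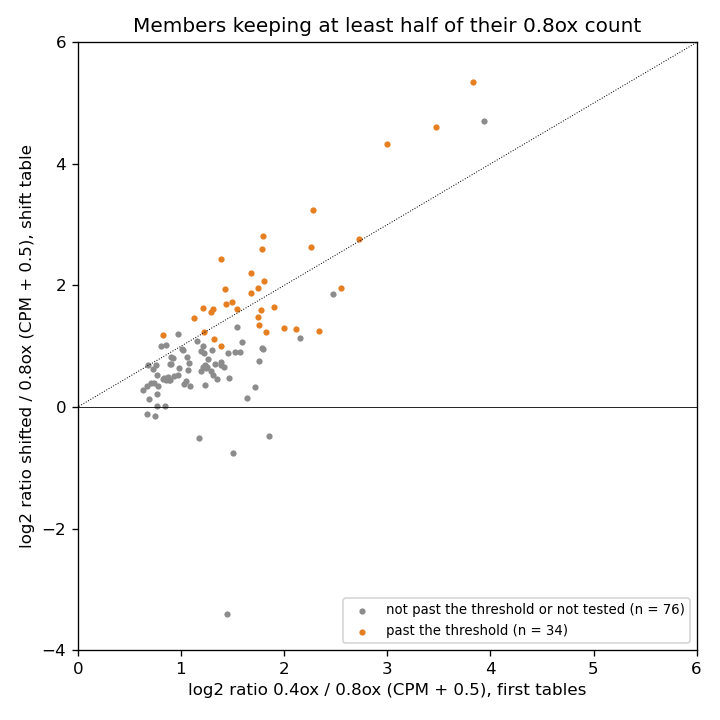
Log2 ratio 0.4ox/0.8ox (x axis) against log2 ratio shifted/0.8ox (y axis), each with 0.5 CPM added, for the 110 members that kept at least 50% of their 0.8ox count, with the 34 members past the threshold in orange and the other 76 in grey. The dotted line marks equal ratios, and 28 points lie above it. The grey point at -3.40 is MDP0000364961, with 0 counts in the shifted sample.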

How the data were processed

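RNA of apple cortex was sequenced by the authors as single reads, aligned with TopHat2 and Bowtie2 and counted with Cuffdiff, per the labels. The gene identifiers carry the GDR apple release 1.0. The authors deposited 4 tables of estimated counts for 63514 genes, with 1 merged value per gene and condition and the variance of that count, and the values for T0, 0.4ox and 0.8ox were identical wherever they recurred in the 3 tables without the shifted sample, while the 0.8ox counts of the table with the shifted sample differ. The tables name no library, so each condition was 1 value here and no quasi-likelihood test could be fitted.

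Counts were divided by the column total to give CPM. The SE of a log2 ratio came from both deposited variances, undivided, as in the statistic of Cuffdiff. The exact test of edgeR 4.0.16, with dispersions from these variances and counts rounded, was an alternative. The members and gene lists were chosen with earlier results of these data known. Named are members annotated by identifier in the sources read here (a part of the study's longest gene table was not used), the 10 with the highest 0.4ox/T0 ratio, the 5 with the most CPM in 0.4ox, the 3 highest and 3 lowest called ratios, and genes beside each bound. The reference table used here gives no MDP identifiers, so no coordinates or sequences are shown. Group VII factors enter only within the list of RT-qPCR genes, and families by description were not analysed here.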

Additional observations from a re-analysis of the deposited data

How the results depend on the processing

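No paired analysis was possible because the tables hold 1 merged value per condition, and for the same reason no replicate was left out. The number of members was 171 and stayed from 165 to 171 with a pseudocount of 1 or 0, scaling by the median ratio, or identical counts taken once, though scaling by the median ratio shared 144 members with the rule and a pseudocount of 1 or 0 shared 154 and 160. It was 50 with at least 50 CPM in 0.4ox and 110 with at least 50% of the count kept. The 37 members called higher became 88 (3 lower) with the variance divided by the 3 libraries, when 1956 of all genes were called higher, and 61 (2 lower) at an adjusted p under 0.05, when 886 were. With scaling by the median ratio, no count minimum, a minimum of 50 counts, the edgeR exact test, identical counts once, and 50% of the count kept, it was 34 to 41, with 0 lower. No minimum count tested 33878 genes and a minimum of 50 tested 12161. The scaling by the median ratio moved the calls over all genes from 319 higher and 86 lower to 269 and 104. The members' median log2 ratio shifted/0.8ox was 0.63 to 0.83 under its alternatives, against 0.71. MDP0000313382 and MDP0000232692 lost their calls with scaling by the median ratio and with no count minimum. The median SE per tested member was 0.28 and the smallest ratio called in a member was 1.01 on the log2 scale, a limit that moved with the use of the variance as above. In the table with the shifted sample, 32 members had under 10 counts in both conditions and could not be tested.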
